A study of Mus musculus with 2 samples.

Results

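Neutrophils made up 88 of the 19622 cells kept from 2 single-cell RNA libraries of lung cells that had been sorted for the ultraviolet autofluorescence of stored retinoids. The cells were chosen by their transcript counts. A cell was taken as a neutrophil when its barcode held at least 20 unique molecular identifiers (UMIs, 1 per captured transcript) of *S100a8* and *S100a9* together and at least 1 UMI of *Retnlg*, *Csf3r* or *Cxcr2*. It also had to hold no UMI of the T cell genes *Cd3e*, *Cd3d* and *Cd3g*, of the B cell gene *Cd79a*, or of the endothelial and epithelial genes *Cdh5* and *Epcam*. Cells were considered when they had at least 200 genes detected and at most 10% of UMIs from mitochondrial genes. Library 1 gave 58 neutrophils and library 2 gave 30. Of these, 47 and 29 had under 0.1% of their UMIs from the fibroblast genes *Col1a1*, *Col1a2*, *Col3a1*, *Mfap4*, *Dcn* and *Pdgfra*, and the values below are from these 76 cells unless stated otherwise. The other 11 and 1 barcodes are described apart.

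The study asked which cells of the lung hold retinoids. Both libraries came from lungs of wild type C57BL/6 mice aged 3 months, all male, which were dissociated with pronase and collagenase before live single cells with a UV signal were collected by flow cytometry. There was 1 condition, so the comparisons below are between cell classes within the libraries. The libraries were made on 2 occasions, so library and occasion cannot be told apart, and since the number of mice behind each is not given, p-values measure only the spread between these libraries. No unsorted or UV-negative cells were analysed here, and the shares describe the sorted cells and not the lung.

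Neutrophils are short-lived granulocytes that are made in the bone marrow and patrol the blood and the lung capillaries. During maturation they fill primary, secondary and tertiary granules in that order, each with its own antimicrobial proteins and proteases, and the transcripts for the early granules disappear before the cells leave the marrow. *S100a8* and *S100a9* encode the subunits of calprotectin, a calcium-binding and zinc-binding protein that dominates the neutrophil cytosol. Vitamin A in tissues is stored as retinyl esters and is converted through retinol and retinal to retinoic acid, which binds nuclear receptors.

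Neutrophils were 0.602% of the cells of library 1 (exact 95% interval 0.457 to 0.778%) and 0.300% of those of library 2 (0.203 to 0.429%). The intervals do not overlap, and they cover counting error only. Of cells with a UMI of *Ptprc*, the pan-leukocyte gene CD45, neutrophils were 15.6% in library 1 (48 of 307) and 4.04% in library 2 (30 of 743). Library 2 held more UMIs, with 93970185 UMIs in 10050 barcodes against 48762735 UMIs in 9669 barcodes, and the median cell held 7577.5 against 4480.0 UMIs. The libraries shared 23 barcode sequences.

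The *S100a8* and *S100a9* counts, which chose the cells, were split into cells with many and cells with none. No UMI of either gene was found in 98.7% and 98.9% of the cells of libraries 1 and 2. Only 4 and 2 cells held 10 to 19 UMIs, just under the limit of 20. The lowest neutrophils in library 1 held 23, 30 and 31 UMIs of the pair, and the highest cells under the limit held 14, 14 and 12. In library 2 the lowest neutrophils held 84, 95 and 128, and the highest cells under the limit held 18, 12 and 8. Beyond the limit, 5 barcodes of library 1 and 8 of library 2 were left out by the other conditions, among them 5 of library 2 with *Cdh5* or *Epcam* UMIs and a median of 24187 UMIs. No doublet caller was run.

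**Figure D1:**
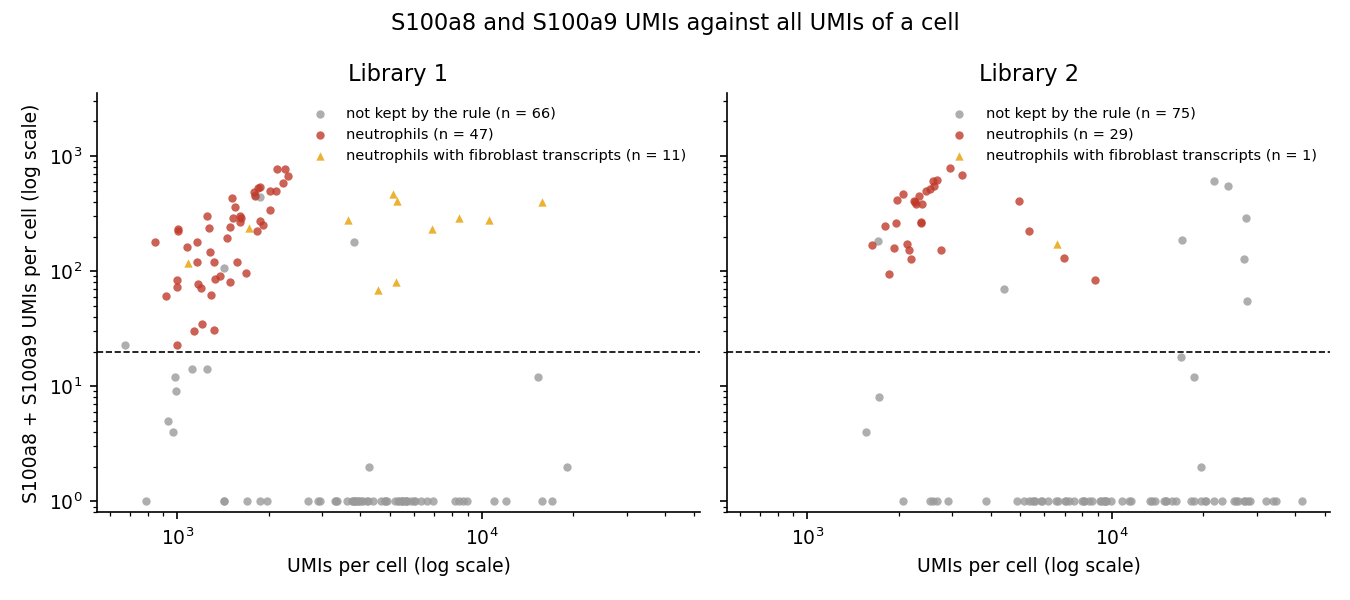
UMIs of *S100a8* and *S100a9* per cell (vertical axis, log scale) against all UMIs of the cell (horizontal axis, log scale) for each cell with at least 1 UMI of the pair, in library 1 (left) and library 2 (right), with the limit of 20 UMIs dashed. Neutrophils sit at low total UMIs and high *S100a8* and *S100a9*, barcodes with fibroblast transcripts lie at 1087 to 15770 total UMIs in library 1 and at 6630 in library 2, and the 66 and 75 cells that were not members held a median of 1.0 UMI of the pair.

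Neutrophils carried little RNA. The cells without fibroblast transcripts held 847 to 2308 UMIs in library 1, with a median of 1491, and 1637 to 8806 in library 2, with a median of 2358. Monocytes of the same libraries held medians of 4495 and 5833.5 UMIs, and fibroblasts held 4241 and 7006. A neutrophil had a median of 599 genes detected in library 1 and 812 in library 2. *S100a8* and *S100a9* alone made up 17.3% and 12.1% of all neutrophil UMIs, and ranged from 23 to 778 and from 84 to 793 UMIs per cell. Mitochondrial transcripts were scarce, with medians of 0.1002% and 0.221% of UMIs against 1.05% and 1.89% in monocytes.

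In library 2, 4 neutrophil barcodes stood apart with over 4000 UMIs each (4976, 5339, 6954 and 8806, where the next held 3216). They contributed 26075 of the library's 83698 neutrophil UMIs, or 31.2%. One held 78 of the library's 104 neutrophil UMIs of *Cd74*, the MHC class II invariant chain. Another held 558 of its 570 UMIs of *Sftpc*, the surfactant gene of alveolar type II cells, with 5.82% mitochondrial UMIs. Library 1 had no such barcode. Results that rest on these 4 barcodes are given with and without them, an alternative chosen after seeing the data. Among the genes described below, *H2-Eb1*, *Irf8*, *Npm1* and *Dhrs3* had no UMI in library 2 without them, *Hsp90ab1* held 69.4 CPM in place of 358, and each was still called lower.

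The 12 barcodes with fibroblast transcripts were 18.97% of the neutrophils of library 1 and 3.33% of those of library 2, and 13.6% over both (exact 95% interval 7.25 to 22.6%). The same limit put 30.6% of monocytes, 51.1% of C1q macrophages and 39.7% of T cells apart. In library 1 these neutrophil barcodes held 1087 to 15770 UMIs, with a median of 5230 and 2062 genes detected, so they were larger than the neutrophils without such transcripts in the middle of the range while the ranges overlapped. They held about as many UMIs of the *S100a8* and *S100a9* pair per cell, a median of 277 against 225. UMIs of the other neutrophil markers had a median of 106 per barcode against 88. Stromal marker UMIs had a median of 156 against 1. Whether these barcodes hold 1 cell or more was not tested.

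The label was checked against markers. *Retnlg*, a resistin-like secreted protein of neutrophils, stood at 7851 CPM (UMIs of the gene per 1000000 UMIs) in library 1 and 6201 in library 2, and *Csf3r*, the receptor of granulocyte colony-stimulating factor, stood at 1817 and 1278. *Cxcr2*, the receptor that draws neutrophils to CXC chemokines, stood at 738 and 932 CPM. *Retnlg*, *Cxcr2*, *S100a8* and *S100a9* had no UMI in either library of monocytes or C1q macrophages. These genes were used in the rule and are given as a description. *Ly6g*, the surface antigen by which mouse neutrophils are usually sorted, was outside the rule and held 2 and 4 UMIs, with none in monocytes, C1q macrophages or fibroblasts.

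Markers of other lineages were counted in the neutrophils. Those of eosinophils, basophils and mast cells summed to 2 and 2 UMIs, with 9 of their 10 genes at 0. Lymphocyte markers outside the rule summed to 1 and 9 UMIs, platelet and red cell markers to 0 and 1, and endothelial markers to 1 and 5. Stromal markers outside the rule summed to 54 and 73 UMIs. Epithelial markers outside the rule summed to 77 and 757 UMIs, of which 1 barcode of library 2 held 740, and 15 UMIs were left in library 2 without the 4 barcodes over 4000 UMIs. Monocyte markers outside the gates summed to 79 and 126 UMIs, found in 41 of 47 and 26 of 29 cells, and markers of tissue macrophages to 75 and 165 UMIs, found in 38 of 47 and 24 of 29 cells. A UMI of *Ms4a6c*, *Csf1r* or *Ccr2* was found in 5 and 7 of all 58 and 30 members. The part of these transcripts in the results was not tested, beyond fits without the members holding a UMI of those 3 genes and without the 4 large barcodes.

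The 250 bases before the start of 4 genes are shown because these genes carry the results: *S100a8* and *S100a9* as the transcripts that define the cells, *Cxcl2* as their most abundant chemokine and *Rdh12* as their most abundant retinoid gene. The windows come from RefSeq on GRCm38.p6 and lie at chr3:90668821-90669070 (*S100a8*, plus strand), chr3:90695722-90695971 (*S100a9*, minus strand), chr5:90903649-90903898 (*Cxcl2*, plus strand) and chr12:79208663-79208912 (*Rdh12*, plus strand). Each is written in the direction of transcription, and capitals mark matches to 4 motifs.
S100a8 promoter: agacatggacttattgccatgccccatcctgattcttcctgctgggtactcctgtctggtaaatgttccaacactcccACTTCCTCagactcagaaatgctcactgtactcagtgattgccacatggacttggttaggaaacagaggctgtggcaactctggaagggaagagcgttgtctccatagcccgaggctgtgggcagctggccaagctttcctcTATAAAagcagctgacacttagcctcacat
S100a9 promoter: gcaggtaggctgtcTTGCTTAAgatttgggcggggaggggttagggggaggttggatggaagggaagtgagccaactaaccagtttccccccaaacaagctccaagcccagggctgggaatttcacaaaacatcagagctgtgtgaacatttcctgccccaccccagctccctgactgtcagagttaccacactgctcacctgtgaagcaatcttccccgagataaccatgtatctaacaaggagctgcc
Cxcl2 promoter: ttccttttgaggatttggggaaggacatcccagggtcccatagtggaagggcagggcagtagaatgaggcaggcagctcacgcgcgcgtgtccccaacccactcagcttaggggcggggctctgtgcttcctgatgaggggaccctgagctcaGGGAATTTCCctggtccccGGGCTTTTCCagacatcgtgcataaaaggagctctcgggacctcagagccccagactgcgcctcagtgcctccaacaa
Rdh12 promoter: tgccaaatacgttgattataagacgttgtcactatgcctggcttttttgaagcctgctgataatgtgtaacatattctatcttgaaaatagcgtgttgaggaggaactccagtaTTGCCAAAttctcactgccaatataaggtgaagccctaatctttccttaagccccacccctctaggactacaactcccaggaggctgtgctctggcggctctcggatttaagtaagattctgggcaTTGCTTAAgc

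The motifs searched, on both strands, were TTGCNNAA for C/EBP factors, GAGGAAGT for ETS factors such as PU.1, the kappaB motif for NF-kB (3 G, then 2 bases of any kind, 3 T and 2 C) and TATAAA for the TATA box. Of 32851 mouse promoter windows of this length, 9.56% held the C/EBP letters, 2.44% the ETS letters, 1.41% the NF-kB letters and 12.4% the TATA letters. *S100a8* had an ETS match 172 to 165 bases before the start and a TATA match 30 to 25 bases before it. *S100a9* had a C/EBP match at 236 to 229 bases, and *Rdh12* had C/EBP matches at 136 to 129 and at 10 to 3 bases. *Cxcl2* had NF-kB matches at 97 to 88 and at 78 to 69 bases before the start. Of 27 neutrophil markers higher than in monocytes, 21 had a window, and 4 of these held the C/EBP letters (*Mmp8*, *Clec4e*, *Lcn2* and *Slpi*). More of the 21, namely 6, held the TATA letters, while 1 held the ETS letters and 1 the NF-kB letters. Whether any of these counts differs from the share over all windows was not tested. A match is a match of letters and was not tested as a binding site.

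To ask what sets neutrophils apart from the other phagocytes of the sort, UMIs were summed per library over neutrophils, monocytes and macrophages. Monocytes (72 and 62 cells) were gated on *Ms4a6c*, on *Ifitm6* or *Gngt2*, and on *Csf1r*, *Cx3cr1* or *Ccr2*, and the class also held transcripts such as *Cd209a*, *Mgl2* and MHC class II genes that are known from dendritic cells. C1q macrophages (44 and 21 cells) were gated on *C1qa*, *C1qb* and *C1qc*. Both classes were limited to cells under 20 *S100a8* and *S100a9* UMIs. Of 2528 genes tested outside the gates, 408 (16.1%) were higher and 470 (18.6%) were lower in neutrophils than in monocytes (34.7% in either direction). Against C1q macrophages, 506 (20%) were higher and 627 (24.8%) were lower (44.8% in either direction). The counts for gene lists below are to be read beside these shares. The median log2 difference over all genes tested was -0.31 against monocytes and -0.27 against macrophages, and log2 differences below are neutrophils over the other class, with their standard error and the Benjamini-Hochberg adjusted p of edgeR's quasi-likelihood test. The 2 comparisons share the same neutrophil sums and leave 2 residual degrees of freedom.

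Of 32 neutrophil markers outside the rule, 28 passed the filter on low counts. Of these, 27 were higher than in monocytes (median log2 difference 5.07) and 27 were higher than in C1q macrophages (median 7.89, or 6.02 with genes absent from the macrophages set at their bound), where 16.1% and 20% of all genes were. The cells had been chosen with genes that accompany these markers, so the count describes the class and is no independent test of it. *Fcgr3*, an Fc receptor that all 3 classes carry, was the marker not called. *Ly6g*, *Cd177* and *Cxcr1* did not pass the filter.

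*Mmp9*, gelatinase B, held 1505 and 812 CPM in neutrophils, no UMI in monocytes, and 30.1 and 28.0 CPM in C1q macrophages. It was at least 281-fold higher than in monocytes, taking 3 UMIs over both libraries as the limit that a count of 0 allows. *G0s2*, an inhibitor of the lipase ATGL, held 12749 and 4695 CPM against 192 and 106 in monocytes and 12.1 and 21.0 in macrophages (log2 5.92 ± 0.40, adjusted p = 1.35e-05, and 8.84 ± 0.53, adjusted p = 1.37e-05). The neutrophil libraries differed by more than 2-fold from each other in *G0s2* and still lay far above the other classes.

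The leading genes included inhibitors of proteases. *Slpi*, the secretory leukocyte protease inhibitor, held 5367 and 2210 CPM against 154 and 33.6 in monocytes (log2 5.65 ± 0.39, adjusted p = 2.13e-05), and was absent from C1q macrophages (at least 390-fold higher). The stefin A genes *Stfa2l1* and *Cstdc4*, cysteine protease inhibitors, were absent from both classes and held 284 and 992 CPM and 412 and 729 CPM in neutrophils. They were at least 155-fold and at least 139-fold higher than in monocytes, and members of this family may share reads. *Asprv1*, an aspartic protease, held 525 and 657 CPM and was at least 144-fold higher than in monocytes.

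Enzymes and receptors stood among the leading genes and the neutrophil markers. *Hdc*, which makes histamine, held 2115 and 1362 CPM against 12.8 and 2.40 in monocytes (log2 7.97 ± 0.50, adjusted p = 1.35e-05), and was at least 179-fold higher than in C1q macrophages. *Acod1*, which makes itaconate, held 1036 and 538 CPM (log2 8.67 ± 0.61 over monocytes, adjusted p = 2.13e-05, and at least 81.1-fold over macrophages). *Il1r2*, the decoy receptor that binds interleukin 1 without signalling, held 1732 and 573 CPM against 35.2 and 7.21 in monocytes and 12.1 and 0 in macrophages (log2 5.95 ± 0.42 and 7.36 ± 0.57). *Trem1*, an activating receptor that amplifies inflammatory signals, held 1718 and 777 CPM against 109 and 43.2 in monocytes (log2 4.19 ± 0.35, adjusted p = 5.09e-05). *Slc7a11*, the cystine transporter, was nearly equal in both neutrophil libraries at 852 and 836 CPM (log2 4.90 ± 0.37 over monocytes, at least 86.9-fold over macrophages). *Mxd1*, a repressor that opposes Myc, held 1363 and 1482 CPM (log2 6.11 ± 0.53 and 6.09 ± 0.60).

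**Figure D2:**
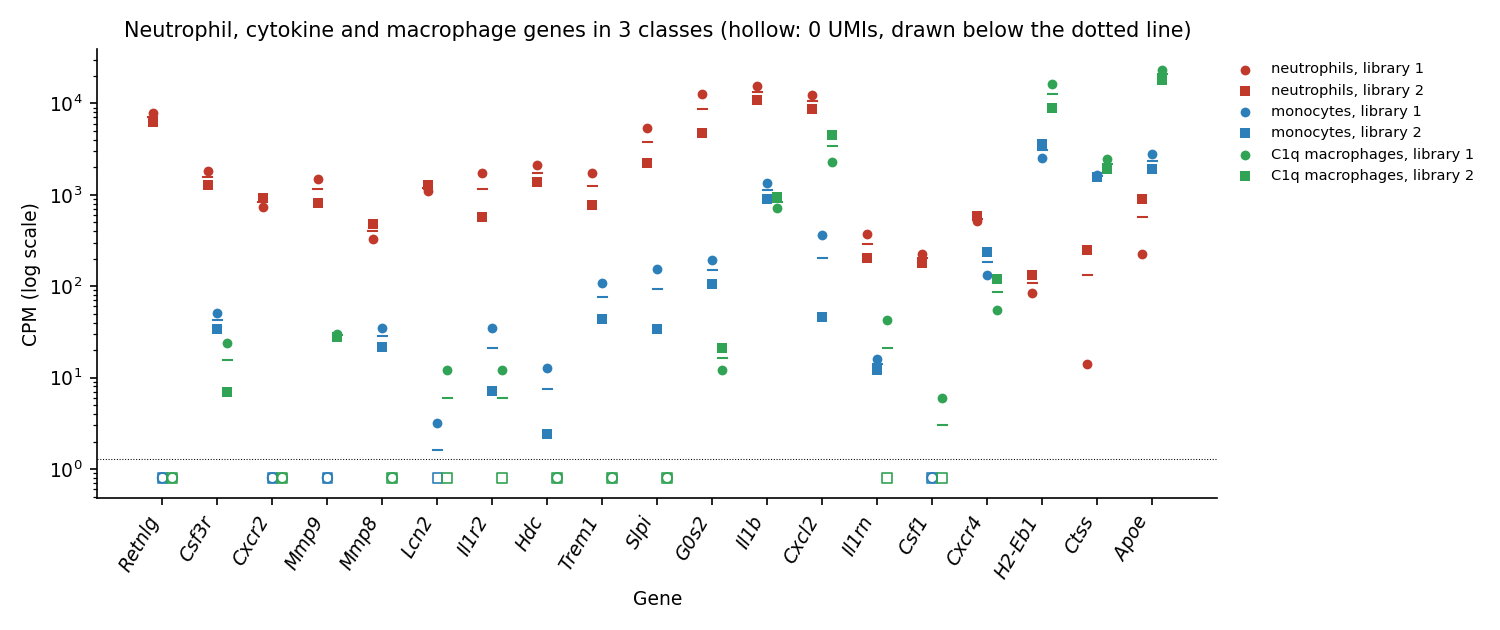
CPM (vertical axis, log scale) of 19 genes (horizontal axis) in neutrophils, monocytes and C1q macrophages, with a circle for library 1, a square for library 2, a bar for their mean and hollow marks below the dotted line for 0 UMIs. *Retnlg*, *Csf3r* and *Cxcr2* belong to the rule, and neutrophil points lie above those of both other classes for *Mmp9*, *Hdc*, *Slpi*, *G0s2* and *Il1b* and below them for *H2-Eb1*, *Ctss* and *Apoe*.

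Transcripts of the early granules were not found, while those of later granules were. All 5 primary granule genes (*Mpo*, *Elane*, *Prtn3*, *Ctsg* and *Ms4a3*) were at 0 UMIs in both libraries, which allows up to 42.6 and 35.8 CPM each. Of the secondary granule genes, *Ltf* and *Camp* were also at 0 and *Ngp* held 2 and 1 UMIs. *Lcn2*, lipocalin 2, which withholds iron from bacteria, held 1107 and 1266 CPM against 3.20 and 0 in monocytes (log2 9.32 ± 0.65, adjusted p = 1.35e-05). *Lcn2* was found in 24 of 47 and 21 of 29 cells, with up to 12 and 16 UMIs in 1 cell, and in none of the 10 and 63 T cells.

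Of 4 secondary granule genes tested, *Lcn2*, *Pglyrp1* and *Hp* were higher than in both classes. *Hp*, haptoglobin, held 2456 and 1398 CPM against 618 and 171 in monocytes (log2 2.63 ± 0.35, adjusted p = 0.000654). The fourth, *Cybb*, the membrane subunit of the NADPH oxidase, was lower, with 14.2 and 251 CPM against 992 and 1170 in monocytes (log2 -2.95 ± 0.56, adjusted p = 0.00293). Without the 4 large barcodes *Cybb* held 69.4 CPM in library 2.

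All 10 tertiary granule and secretory vesicle genes were tested, and none was lower. Against monocytes 5 were higher (median log2 1.45), where 16.1% of all genes were. Against C1q macrophages 7 were higher (median 4.67, or 3.61 with bounds), where 20% of all genes were. *Mmp8*, neutrophil collagenase, held 327 and 478 CPM against 35.2 and 21.6 in monocytes (log2 3.97 ± 0.46, adjusted p = 0.000285). *Adam8*, a shedding protease, held 454 and 287 CPM against 44.8 and 14.4 (log2 3.85, adjusted p = 0.000181). The integrin subunits *Itgam* and *Itgb2*, which together form Mac-1, were not called against monocytes, with log2 differences of -0.37 and 0.05. *Ceacam1* was called higher against C1q macrophages and lost that call without the 4 large barcodes.

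Receptors for chemoattractants were mostly higher than in monocytes, with 7 of 9 tested genes higher and 1 lower. The shares over all genes were 16.1% and 18.6%. Against C1q macrophages, 4 were higher and 1 lower, where 20% and 24.8% of all genes were. The formyl peptide receptors *Fpr1* and *Fpr2*, which sense bacterial peptides, held 85.2 and 143 CPM and 128 and 119 CPM (log2 6.01 ± 0.97 and 2.01 ± 0.63 over monocytes). *C5ar1*, the receptor of complement fragment C5a, held 667 and 382 CPM against 25.6 and 55.3 in monocytes (log2 3.73 ± 0.46, adjusted p = 0.00028) and 277 and 238 in macrophages (log2 0.90 ± 0.41, adjusted p = 0.0929). *Ccr1*, which binds chemokines such as Ccl3, held 667 and 573 CPM against 41.6 and 76.9 in monocytes. *Ltb4r1*, the leukotriene B4 receptor, was lower than in monocytes, with 28.4 and 23.9 CPM against 154 and 88.9 (log2 -2.01 ± 0.62, adjusted p = 0.0301).

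*Cxcr4*, the receptor that retains neutrophils in the marrow and guides their return to it, held 511 and 585 CPM against 131 and 238 in monocytes (log2 1.74 ± 0.33, adjusted p = 0.00321) and was found in 20 of 47 and 19 of 29 cells. *Selplg*, the ligand of P-selectin, held 866 and 681 CPM against 218 and 240 (log2 1.89 ± 0.32). Of the 11 adhesion and clearance genes tested, 7 were higher and none lower than in C1q macrophages, where 20% and 24.8% of all genes were. Against monocytes, 4 were higher and 1 lower, where 16.1% and 18.6% of all genes were. *Cd47*, which keeps cells from being eaten, was the lower one, with 256 and 179 CPM against 464 and 569 (log2 -1.12, adjusted p = 0.0358), a call that was lost under 5 of 11 alternatives, DESeq2 and the fit without the library block among them (adjusted p of 0.0151 to 0.168 over the 11).

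Interleukin 1β and Cxcl2 transcripts were the most abundant cytokine transcripts of the neutrophils. *Il1b* held 15362 and 10968 CPM against 1344 and 894 in monocytes and 717 and 951 in C1q macrophages (log2 3.70 ± 0.33, adjusted p = 4.79e-05, and 3.85 ± 0.34, adjusted p = 4.48e-05). It was found in every one of the 47 and 29 cells, at 7 to 56 UMIs with a median of 21 and at 6 to 54 with a median of 31, and in none of the 10 and 63 T cells.

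*Cxcl2*, a chemokine that itself acts on Cxcr2, held 12380 and 8710 CPM against 365 and 45.6 in monocytes (log2 6.03 ± 0.75, adjusted p = 0.000288). C1q macrophages held 2290 and 4523 CPM, below both neutrophil libraries, and the difference was not called (log2 1.38 ± 0.62, adjusted p = 0.0914). Without the 4 large barcodes it was called (log2 1.66, adjusted p = 0.0163). *Cxcl2* was uneven among cells. It was found in 40 of 47 and 22 of 29 cells, with a median of 15 UMIs in both libraries and up to 75 and 96.

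Of 24 cytokines and chemokines listed, 14 were tested. Against monocytes 6 were higher and 3 lower, where 16.1% and 18.6% of all genes were. Against C1q macrophages 5 were higher and 6 lower, where 20% and 24.8% of all genes were. *Il1rn*, the interleukin 1 receptor antagonist, held 369 and 203 CPM against 16 and 12 in monocytes (log2 4.40 ± 0.60) and 42.2 and 0 in macrophages (log2 3.62 ± 0.66). *Csf1*, which sustains macrophages, held 227 and 179 CPM and no UMI in monocytes (at least 49.4-fold higher). *Osm*, oncostatin M, held 270 and 335 CPM (log2 2.22 ± 0.44 and 2.96 ± 0.54). *Ccl6* held 1945 and 2163 CPM against 685 and 910 in monocytes (log2 1.52 ± 0.30, adjusted p = 0.00352).

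Several chemokines of macrophages were lower. *Ccl2*, which recruits monocytes, had no UMI in neutrophils and was at least 5.41-fold lower than in monocytes and at least 48.0-fold lower than in C1q macrophages. *Ccl3* held 42.6 and 59.7 CPM against 313 and 238 in macrophages (log2 -2.53 ± 0.59, adjusted p = 0.00623). *Tnf* held 56.8 and 0 CPM against 193 and 105 (log2 -2.57 ± 0.79, adjusted p = 0.0238).

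**Figure D3:**
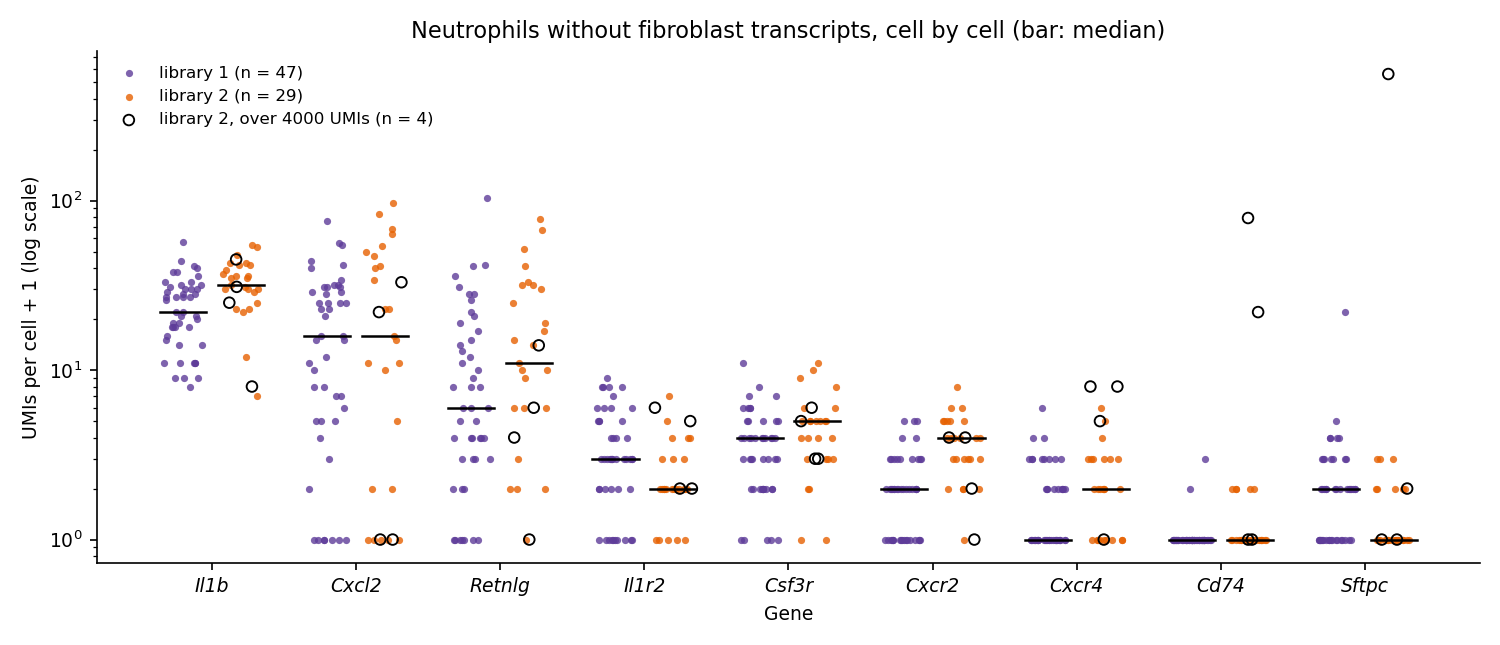
UMIs per cell plus 1 (vertical axis, log scale) of 9 genes (horizontal axis) in each neutrophil without fibroblast transcripts, in library 1 (47 cells) and library 2 (29 cells), with a bar for the median and black rings for the 4 barcodes over 4000 UMIs. *Il1b* is present in every cell, *Cxcl2* spreads from 0 to 75 and 96 UMIs, and the highest *Cd74* and *Sftpc* counts are 2 of the ringed barcodes.

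Of 18 NF-kB response genes tested, 6 were higher and 3 lower than in monocytes (median log2 0.66), where 16.1% and 18.6% of all genes tested were called. Against C1q macrophages, 3 were higher and 3 lower (median 0.07), where 20% and 24.8% of all genes tested were called. *Tnfaip2* held 4685 and 1517 CPM against 253 and 79.3 in monocytes (log2 4.36 ± 0.34, adjusted p = 2.13e-05). *Nlrp3*, the inflammasome sensor, held 1150 and 657 CPM against 192 and 84.1 (log2 2.89 ± 0.33, adjusted p = 0.000203). *Ptgs2*, which makes prostaglandin precursors, held 795 and 358 CPM against 99.2 and 106 (log2 2.53 ± 0.38). *Nfkb1* and *Rel*, subunits of the factor itself, were lower than in monocytes (log2 -1.97 ± 0.53 and -1.37 ± 0.36).

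Of 15 immediate early genes tested, 11 were higher and 1 lower, *Klf4*, than in monocytes (median log2 1.34). The shares over all genes were 16.1% and 18.6%. Against C1q macrophages, 5 were higher and 2 lower, *Jun* and *Atf3* (median 0.38), where 20% and 24.8% of all genes were. *Fos*, *Egr1* and *Klf2* were called although their library values overlapped between neutrophils and monocytes, since both classes were higher in library 2 and the fit compares within libraries. *Fos* held 1093 and 2903 CPM against 490 and 1602 (log2 1.14 ± 0.29, adjusted p = 0.0131).

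Heat shock genes mostly went the other way. Of 7 tested, 5 were lower and 1 higher than in each class (median log2 -2.03 and -2.46). Over all genes, 18.6% were lower and 16.1% higher than in monocytes, and 24.8% lower and 20% higher than in C1q macrophages. Among the 5, *Hsp90aa1* lost its call under 6 of 11 alternatives against monocytes (adjusted p of 0.0263 to 0.655). It lost its call under 5 of 11 against macrophages (0.0285 to 0.743). Against monocytes, *Hspd1* lost its call under 2 of 11 and *Hsp90ab1* under 1. *Hsp90ab1* held 170 and 358 CPM against 1098 and 1261 in monocytes and 1374 and 1335 in macrophages (log2 -2.03 ± 0.36 and -2.48 ± 0.37). *Hspa8* held 56.8 and 418 CPM against 1107 and 1100 in monocytes (log2 -2.16 ± 0.52, adjusted p = 0.00989), and 174 CPM in library 2 without the 4 large barcodes. *Dnaja1*, a cochaperone, was the higher one (log2 0.96 ± 0.33, adjusted p = 0.0442, over monocytes), a call that was lost under 5 of 11 alternatives, DESeq2 and the fit without the library block among them (adjusted p of 0.0221 to 0.453 over the 11). *Npm1*, which serves ribosome assembly, held 0 and 23.9 CPM against 454 and 711 in monocytes (log2 -5.33 ± 0.63, adjusted p = 0.000227).

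Survival genes and transcription factors followed. *Mcl1*, the antiapoptotic protein on which neutrophils depend, held 3691 and 2628 CPM against 1008 and 781 in monocytes and 717 and 951 in macrophages (log2 1.96 ± 0.32 and 1.80 ± 0.32). *Pim1*, a survival kinase, held 2130 and 1900 CPM (log2 2.04 ± 0.30 and 2.71 ± 0.32). *Bax*, the proapoptotic pore protein, held 28.4 and 47.8 CPM against 256 and 183 in monocytes (log2 -2.31 ± 0.51, adjusted p = 0.00645). Of 8 survival genes tested, 4 were higher and 1 lower than in monocytes, where 16.1% and 18.6% of all genes were. Against macrophages, 3 were higher and 1 lower, where 20% and 24.8% of all genes were. The proapoptotic *Bcl2l11* was higher in both comparisons. Calls of *Bcl2l11* and *Birc3* against monocytes were lost under 5 of 11 alternatives each. *Bcl2a1a*, *Bcl2a1b* and *Bcl2a1d*, antiapoptotic genes of the NF-kB list, were lower than in macrophages, and *Bcl2a1d* was lower than in monocytes.

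*Cebpb*, a C/EBP factor of inflamed and mature myeloid cells, held 3521 and 4397 CPM against 1303 and 2112 in monocytes and 271 and 755 in macrophages (log2 1.40 ± 0.33 and 2.99 ± 0.35). *Spi1*, which encodes PU.1, was higher by log2 1.07 ± 0.36 and 1.46 ± 0.37 (adjusted p = 0.0385 and 0.01). *Irf8*, which directs precursors to monocytes, held 0 and 23.9 CPM against 109 and 93.7 in monocytes (log2 -2.79 ± 0.85, adjusted p = 0.0286). Of 13 transcription factors tested, 4 were higher and 2 lower than in monocytes, where 16.1% and 18.6% of all genes were. Against macrophages, 4 were higher and 4 lower, where 20% and 24.8% of all genes were. *Cebpe*, the factor of the secondary granule stage, held 1 and 2 UMIs.

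Of the 6 NADPH oxidase genes, the cytosolic subunit *Ncf1* and the small GTPase *Rac2* were among those higher than in both classes, while *Cybb* was lower. *Ncf1* held 341 and 311 CPM against 99.2 and 88.9 in monocytes (log2 1.93 ± 0.39, adjusted p = 0.00437). Of 12 glycolysis and hypoxia genes tested, 1 was higher than in monocytes, *Slc2a3*, a glucose transporter, with 327 and 239 CPM against 0 and 9.61 (log2 5.69 ± 0.78, adjusted p = 0.000512). Of 10 interferon-induced genes tested, 3 were higher and 1 lower than in monocytes (median log2 0.26), where 16.1% and 18.6% of all genes were. Against C1q macrophages, 7 were higher (median 3.87, or 3.15 with bounds), where 20% of all genes were. *Slfn4* held 142 and 323 CPM with no UMI in either class. In library 2, 1 cell held 119 of the 331 UMIs of the interferon-induced genes. Cell cycle genes summed to 1 and 3 UMIs.

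**Figure D4:**
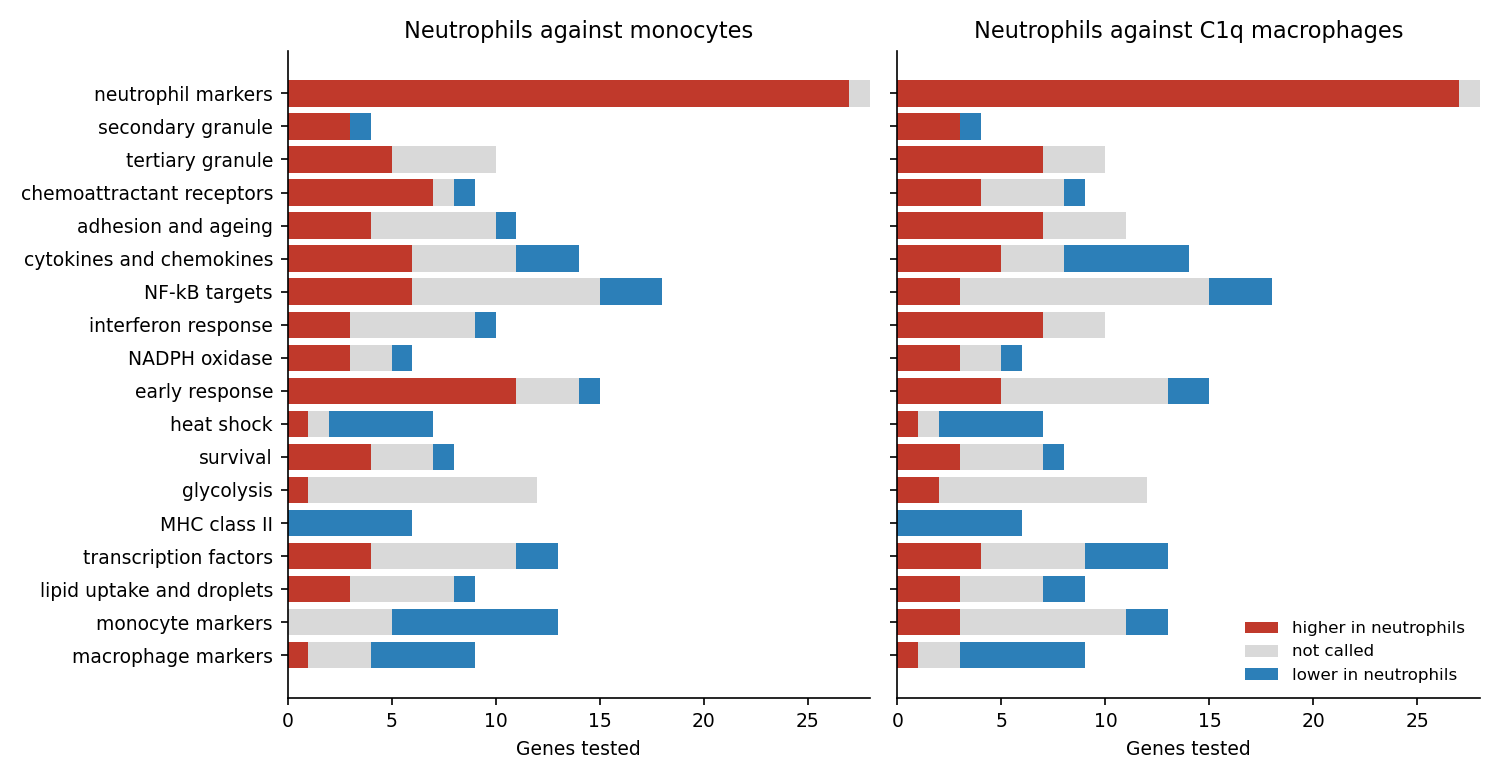
Number of genes tested (horizontal axis) in 18 gene lists (vertical axis) that were higher in neutrophils, not called or lower in neutrophils at an adjusted p under 0.05, against monocytes (left) and C1q macrophages (right). Neutrophil markers were higher in 27 of 28 in both, MHC class II genes were lower in 6 of 6 in both, and most glycolysis genes (11 of 12 and 10 of 12) were not called. Over all genes tested, 34.7% and 44.8% were called in either direction.

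Genes of antigen presentation and of macrophages were low. All 6 MHC class II genes tested were lower than in monocytes (median log2 -4.04) and lower than in C1q macrophages (median -6.03). The shares of all genes called lower were 18.6% and 24.8%. The 7 listed MHC class II genes were uneven among monocytes. Their summed UMIs per monocyte had medians of 4.0 and 9.5 and reached 703 and 858 in libraries 1 and 2. *H2-Eb1* held 85.2 and 131 CPM against 2551 and 3625 in monocytes and 16468 and 8893 in macrophages (log2 -4.68 ± 0.47 and -6.94 ± 0.50). *Cd74* held 42.6 CPM in library 1 and 1243 in library 2, where 99 of 104 UMIs came from the 4 large barcodes. Without them library 2 held 86.8 CPM and the log2 difference to monocytes was -7.16 in place of -4.07. *Mgl2*, a lectin of dendritic cells and macrophages, had no UMI and was at least 24.5-fold lower than in monocytes. *Pf4*, a chemokine that these macrophages also carried, had no UMI and was at least 112-fold lower than in C1q macrophages.

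Of 13 monocyte markers tested, 8 were lower than in monocytes and none was higher (median log2 -2.70). The shares over all genes were 18.6% and 16.1%. The monocytes had been chosen with genes that accompany these markers, so this count describes that class and is no independent test. Against C1q macrophages, 3 of the 13 were higher and 2 lower (median 2.00, or 1.49 with bounds), where 20% and 24.8% of all genes were. Of 9 macrophage markers tested, 5 were lower and 1 higher than in monocytes, where 18.6% and 16.1% of all genes were. Against C1q macrophages, 6 were lower and 1 higher, where 24.8% and 20% of all genes were. The C1q macrophages had likewise been chosen with genes that accompany these markers, so the count against them is no independent test. *Apoe*, apolipoprotein E, held 227 and 908 CPM against 23350 and 18024 in C1q macrophages (log2 -5.33, adjusted p = 9.45e-05). *Ctsd*, the lysosomal protease cathepsin D, was the macrophage marker that was higher in neutrophils, with 667 and 550 CPM against 86.4 and 271 in monocytes (log2 1.99 ± 0.44, adjusted p = 0.00681).

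Since the cells were sorted for retinoid fluorescence, the genes of retinoid storage and conversion were examined. Of 19 such genes, 4 passed the filter. *Rdh12* (chr12:79208914-79222665, plus strand, GRCm38), a retinol dehydrogenase that reduces retinal to retinol, held 298 and 299 CPM in neutrophils, 6.40 and 4.80 in monocytes, 6.03 and 6.99 in C1q macrophages and 0.354 and 0.226 in fibroblasts. It was higher than in monocytes (log2 5.73 ± 0.54, adjusted p = 6.32e-05) and than in macrophages (log2 5.31 ± 0.65, adjusted p = 0.000174). *Rdh12* was found in 15 of 47 cells (31.9%) and 16 of 29 cells (55.2%), and in 0 of 10 and 2 of 63 T cells, which were deeper with medians of 3245 and 4720 UMIs. With each cell thinned to 1000 UMIs the shares were 27.3% of 44 cells and 34.5% of 29 cells.

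*Dhrs9*, a short-chain dehydrogenase that acts on retinol, held 170 and 131 CPM against 0 and 7.21 in monocytes (log2 5.12 ± 0.86, adjusted p = 0.00197) and no UMI in C1q macrophages (at least 15.5-fold higher). It was found in 10 of 47 and 6 of 29 cells. *Fabp5*, a fatty acid carrier that also binds retinoic acid, held 71.0 and 275 CPM and was higher than in C1q macrophages (log2 3.59 ± 0.84, adjusted p = 0.00647), with log2 1.34 over monocytes (adjusted p = 0.0863). *Dhrs3*, which reduces retinal, held 0 and 23.9 CPM against 127 and 140 in C1q macrophages (log2 -3.52 ± 0.95, adjusted p = 0.013).

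Other genes of retinoid storage and conversion were close to 0. *Lrat*, which esterifies retinol, held 2 and 0 UMIs in neutrophils and 317 and 140 CPM in fibroblasts. *Aldh1a1*, which makes retinoic acid, held 0 and 47.8 CPM against 717 and 1663. *Rdh10*, *Stra6* and *Aldh1a2* held no UMI. The fibroblast levels are given without a test.

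Of the 6 receptors, *Rara*, the retinoic acid receptor alpha, was the one tested. It held 142 and 215 CPM in neutrophils, 89.6 and 142 in monocytes and 30.1 and 41.9 in C1q macrophages, so the lower neutrophil library was level with the higher monocyte library and the difference did not pass the test (log2 0.76 ± 0.39, adjusted p = 0.152), while both neutrophil libraries lay above both macrophage libraries (log2 2.18 ± 0.51, adjusted p = 0.0063). *Rara* was found in 8 of 47 and 11 of 29 cells. *Rxra*, the partner receptor, held no UMI.

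Genes of triglyceride and ester handling included 3 that were higher than in both classes. *Dgat1*, an acyltransferase that can also esterify retinol, held 383 and 95.6 CPM against 38.4 and 21.6 in monocytes and 24.1 and 21.0 in macrophages (log2 3.00 ± 0.51 and 3.22 ± 0.61). *Dgat2* held 114 and 83.6 CPM (log2 2.58 ± 0.73 and 3.69 ± 1.02), and *Pnpla2*, the triglyceride lipase ATGL, held 142 and 275 CPM (log2 2.30 ± 0.43 and 2.15 ± 0.49). *Plin2*, which coats lipid droplets, held 85.2 and 251 CPM and was not called. *Lrp1*, which takes up lipoprotein remnants, held 0 and 95.6 CPM against 272 and 339 in monocytes (log2 -2.47 ± 0.61, adjusted p = 0.0114), and in library 2 34.7 CPM without the 4 large barcodes. Of 9 such genes tested, 3 were higher and 1 lower than in monocytes, where 16.1% and 18.6% of all genes were.

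**Figure D5:**
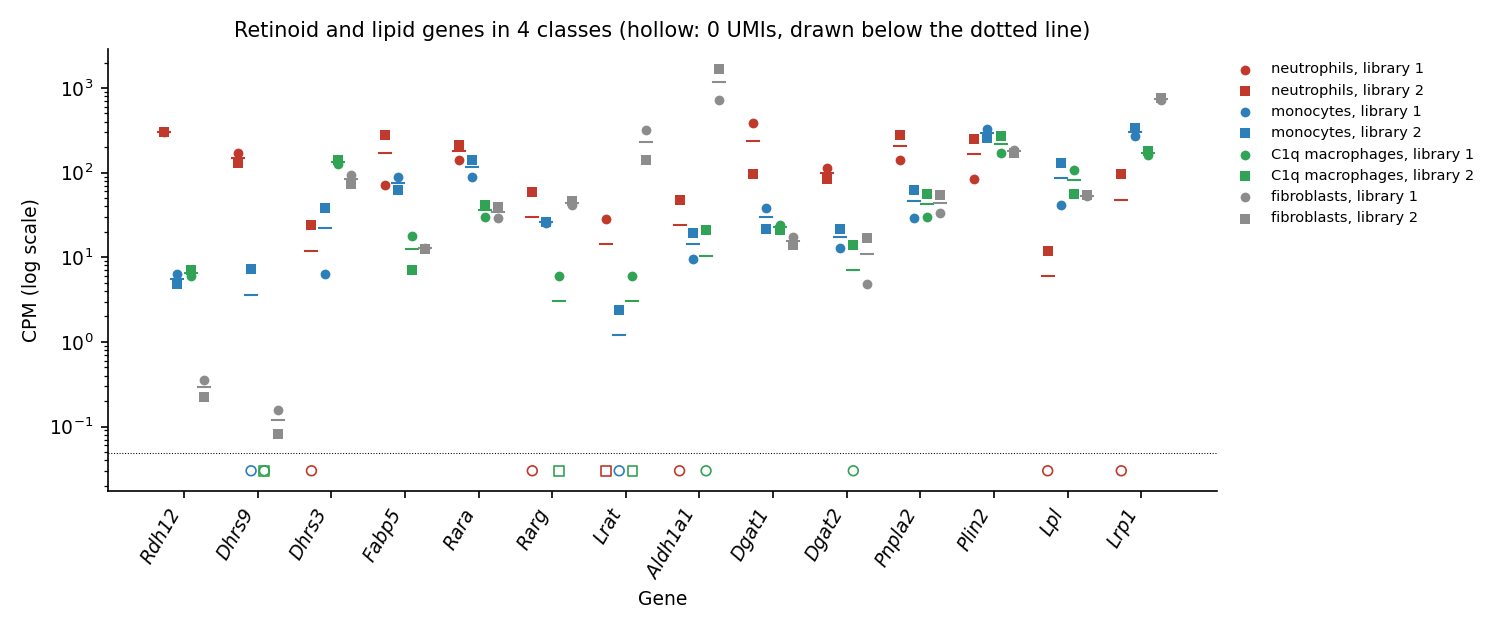
CPM (vertical axis, log scale) of 14 retinoid and lipid genes (horizontal axis) in neutrophils, monocytes, C1q macrophages and fibroblasts, with a circle for library 1, a square for library 2, a bar for their mean and hollow marks below the dotted line for 0 UMIs. *Rdh12* stands at 298 and 299 CPM in neutrophils and under 10 in the other classes, whereas *Lrat* and *Aldh1a1* are highest in fibroblasts.

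The neutrophils of the libraries were compared as values with no test. Of 269 genes whose mean reached 500 CPM, 204 lay within 2-fold between the libraries, 39 were more than 2-fold higher in library 1 and 26 in library 2. *Ccl4*, a chemokine, held 909 CPM in library 1 and 95.6 in library 2. *Plaur*, the urokinase receptor, held 1505 and 311 CPM. *Klf2*, a factor that restrains leukocyte activation, went the other way with 539 and 3405 CPM, and 3610 without the 4 large barcodes, while monocytes held 474 and 1367.

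The gene *Gm42418* held 16852 and 107625 CPM in neutrophils, 11454 and 88149 in monocytes and 8923 and 33215 in fibroblasts. It was higher in library 2 in all 3 classes, and its UMIs are part of the totals behind every CPM value. *Sftpc* held 937 and 6810 CPM, and 191 in library 2 without the 4 large barcodes, beside 416 and 106 in monocytes. *mt-Atp6* held 142 and 1804 CPM, and 521 without those barcodes. *Sftpc* and *Sftpa1* were called higher in neutrophils than in both classes, and nearly all of their library 2 UMIs came from 1 barcode. Without the 4 large barcodes *Sftpc* was higher than in monocytes by log2 1.15 (adjusted p = 0.0118), and *Sftpa1* did not pass the filter.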

How the data were processed

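Single-cell RNA was measured in 2 libraries of UV-positive lung cells of wild type mice with the 10x Genomics Chromium kit for transcript ends. The authors made the deposited UMI count matrices with Cell Ranger 5.0.1 on mm10 and kept its filtered barcodes, and the counts are not normalised. The reference tables used here for positions and promoters are GRCm38, the same build. The strand setting of the counting is not given in the sources used here. The H2-Q, stefin A, Bcl2a1, Slfn and Ifit families may share reads between their members.

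From these counts, cells were kept at 200 genes or more and 10% mitochondrial UMIs or less, and classes were gated by UMIs of fixed genes. Barcodes with 0.1% or more of UMIs from 6 fibroblast genes were set apart. The members and the gene lists were chosen with earlier results of these data known. UMIs were summed per library and class and given as CPM. edgeR 4.0.16 (R 4.3.3; TMM, filterByExpr, quasi-likelihood test, two-sided) was fitted to neutrophils, monocytes and C1q macrophages with a term for the library (the block). Benjamini-Hochberg adjustment ran over all 2528 genes tested, and calls were made at 0.05. The 32 genes of the gates were left out of the tests. The libraries are the pairs: all classes of a library come from the same cell suspension. Alveolar macrophages had 1 and 4 cells, under the minimum of 10 for a sum, so the planned comparison with them was not made. Intervals are exact (Poisson for CPM, Clopper-Pearson for shares). For shares of cells with a UMI, cells were also thinned to 1000 UMIs. Named genes are those of the rule, those of the lists, and the 10 largest differences per direction among called genes with at least 200 CPM in both libraries of the higher class. A gene at 0 in a class was given a bound at 3 UMIs over both libraries. DESeq2 1.42.0, other filters, gates and scalings were tried as alternatives. The fits were tested on simulated data with a fixed spread and no difference between libraries. Of 4-fold changes, 71.1% were recovered against monocytes and 63.3% against C1q macrophages. Of 8-fold changes, 89.5% and 91.9% were. The spread of these data was not simulated, so a gene not called may still differ. Python 3.11.15, numpy 2.4.6, pandas 2.3.3, scipy 1.17.1 and matplotlib 3.10.9 were used. Some items are not reported here.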

Additional observations from a re-analysis of the deposited data

How the results depend on the processing

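The log2 differences of 411 gene and class pairs were recomputed under each alternative that keeps both libraries. Of these values 4217 kept their side of the threshold without a counted turn, 103 gained a call, 176 lost one and 5 turned. A turn was counted only for genes called in the main fit or in the alternative. DESeq2 called 250 genes lower than in monocytes in place of 470, with 337 in place of 408 higher, so that 57.4% of calls were higher in place of 46.5%. Its size factors in edgeR moved the median over all genes to -0.14 against monocytes and -0.19 against C1q macrophages. Without the filter on low counts 35.0% of the calls against monocytes were higher. With barcodes with fibroblast transcripts kept, *Tuba1b* (0.44) and *Mgp* (4.26) turned against monocytes and *Jun* (0.0938), *Lrp1* (0.50) and *Mgp* (3.58) turned against macrophages on the log2 scale. Without the library block 298 genes were higher and 344 lower than in monocytes, and 419 and 494 against macrophages. Thinning to 500 UMIs gave shares of cells with a UMI of 0.0% and 0.0% for *Ly6g*, 44.7% and 17.2% for *Mmp9*, and 6.38% and 3.45% for *Rara*, and no thinning gave 93.1% for *Mmp9* in library 2. With 1 library left out, the share of neutrophils was 0.300% to 0.602% and that with fibroblast transcripts 3.33% to 18.97%. With 1 library left out no residual degrees of freedom remain, so no calls were made. Of the gene differences then computed 352 moved by less than the spread and 470 by more. None of the genes called in the main fit turned, and turns of other genes were not counted. Leaving out the 4 barcodes over 4000 UMIs, chosen after seeing the data, gave 482 higher and 681 lower genes against monocytes and 556 and 788 against macrophages. *Ceacam1* and *Ace* then lost their calls against macrophages. Among the genes named, 5 of 11 alternatives ended the calls of *Bcl2l11*, *Birc3*, *Cd47*, *Dnaja1*, *Klf2*, *Klf4* and *Spi1* against monocytes. The same number ended those of *Klf2* and *Hsp90aa1* against macrophages, and 6 of 11 ended that of *Hsp90aa1* against monocytes. Against monocytes, *Fpr2* lost its call under 4 of 11 alternatives, and *Irf8* and *Ltb4r1* theirs under 3 each. *Fos*, *Egr1*, *Cebpb* and *Rac2* lost their calls against monocytes without the library block, and *Jun*, *Ctsd* and *Cybb* theirs against macrophages. The alternatives for alveolar macrophages were not run, since the class had too few cells. With 76 neutrophils, a gene at 0 may still hold up to 42.6 and 35.8 CPM in libraries 1 and 2.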
